A study of Mus musculus with 76 samples.

Results

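Sfmbt2 and Sfmbt1 are a pair of paralogous Polycomb genes, and both were followed here through 4 stages of mouse development in embryos of mothers with and without Ezhip. They were chosen by name, as 2 of the 48321 genes in the deposited count tables, and both had counts at every stage. Single oocytes, single 2-cell embryos, single blastocysts and pieces of extraembryonic ectoderm (ExE, the part of the trophoblast that adjoins the epiblast) at embryonic day 6.5 were profiled by sequencing of polyadenylated RNA, in 76 libraries. Libraries were either wild type (WT) or maternal knockout for Ezhip (matKO), meaning that the mother lacked Ezhip, whose protein inhibits the histone methyltransferase complex PRC2. There were 3 WT and 4 matKO oocytes, 11 WT (5 female, 6 male) and 12 matKO (6 female, 6 male) 2-cell embryos, 14 WT (6 female, 8 male) and 14 matKO (7 female, 7 male) blastocysts, and 10 WT (6 female, 4 male) and 8 matKO (5 female, 3 male) ExE pieces. The Ezhip allele, strain, father, litter and genotype of the embryo itself were not given in the sources used here. P-values therefore measure only the spread between these libraries, part of which may be technical.

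Sfmbt2 encodes a protein with MBT domains, folds that bind methylated lysines of histones, and belongs to the PhoRC-type Polycomb complexes, which are brought to DNA by YY1-type zinc finger proteins. In the mouse it is one of the genes with noncanonical imprinting: the maternal copy is silenced by H3K27me3, the mark placed by PRC2 in the oocyte, and the paternal copy is expressed in the trophoblast, where Sfmbt2 is needed for the trophoblast lineage and the placenta. One of its introns carries a large cluster of microRNA genes. Sfmbt1 has the same domain layout and associates with LSD1-CoREST, a histone demethylase complex, and with other Polycomb proteins. The counts do not separate maternal from paternal copies, so levels and not imprinting were measured.

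In build mm10, Sfmbt2 lies on chromosome 2 from 10370510 to 10595253 on the plus strand, and its exons merge to 9128 bases. Sfmbt1 lies on chromosome 14 from 30714849 to 30822713 on the plus strand, with 8629 bases of merged exons. GENCODE release M21 lists 7 transcripts of Sfmbt2 that begin in 2 places, near 10370510 and near 10372436. The 250 bases before each start in RefSeq (GRCm38.p6) are printed here because the CG content of a promoter is a usual guide to how it is silenced, with CG pairs in capitals. The first Sfmbt2 window is chr2:10370201-10370450, the second is chr2:10372186-10372435 and the Sfmbt1 window is chr14:30714917-30715166, all on the plus strand. The RefSeq start of Sfmbt1, 30715167, lies after the beginning of the span given above, so its window lies inside that span.
Sfmbt2 start 1: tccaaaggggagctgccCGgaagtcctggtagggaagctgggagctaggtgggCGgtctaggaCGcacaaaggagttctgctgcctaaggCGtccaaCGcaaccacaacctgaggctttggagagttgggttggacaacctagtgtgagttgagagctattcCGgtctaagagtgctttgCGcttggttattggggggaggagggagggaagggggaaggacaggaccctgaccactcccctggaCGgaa
Sfmbt2 start 2: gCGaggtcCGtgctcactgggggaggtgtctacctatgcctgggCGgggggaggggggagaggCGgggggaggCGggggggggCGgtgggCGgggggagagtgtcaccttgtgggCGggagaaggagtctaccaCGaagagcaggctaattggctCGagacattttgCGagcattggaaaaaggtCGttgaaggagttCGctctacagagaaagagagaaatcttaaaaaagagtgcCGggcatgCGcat
Sfmbt1 start: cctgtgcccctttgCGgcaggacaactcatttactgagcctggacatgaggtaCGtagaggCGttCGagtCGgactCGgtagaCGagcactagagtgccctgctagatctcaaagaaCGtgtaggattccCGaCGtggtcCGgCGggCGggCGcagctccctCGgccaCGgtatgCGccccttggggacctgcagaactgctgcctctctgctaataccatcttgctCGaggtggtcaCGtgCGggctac
The first Sfmbt2 window held 8 CG pairs and the second held 15, and the Sfmbt1 window held 20. Over 32851 such windows of the mouse genome the median was 6, and 43%, 27.3% and 17.9% of windows had at least as many as these 3. The second Sfmbt2 window lies between exons of the transcripts that begin at the first start. YY1-type proteins are the DNA-binding partners of PhoRC-type complexes. A YY1-type motif, GCCATNTT on either strand, was therefore searched from 250 bases before to 50 bases after each start. It was found once, in the first exon of the transcripts that begin at the second Sfmbt2 start, beginning at base 10 of the transcript counted from 1. The stretch is chr2:10372434-10372463 on the plus strand, with the match in capitals.
Sfmbt2 start 2 motif: atagagaggatGCCATATTggaatgaggct
Of all windows of 300 bases, 6.05% held the motif. The windows of the first Sfmbt2 start and of Sfmbt1 did not hold these letters. These are descriptions of the sequence, and no binding was measured.

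Library totals, in megacounts, were between 5.27 and 26.5 for oocytes, 1.05 and 14.1 for 2-cell embryos, 4.06 and 32 for blastocysts, and 2.74 and 26.7 for ExE. Levels are counts per megacount of the library total (CPM), given as mean ± SD, the standard deviation over libraries of a group. Ezhip, listed as AU022751, was checked first: WT oocytes held 1263 ± 280.3 CPM (SD, n = 3) and matKO oocytes 0.288 ± 0.210 (n = 4), and 2-cell embryos held 160 ± 92.0 (n = 11) and 3.29 ± 5.51 (n = 12). The library identifiers carry prefixes, which are names of unknown meaning in the labels. Blastocysts came under D405T (10 WT, 6 matKO) and D707T (4 WT, 8 matKO), and within D707T the identifier numbers were 1 to 4 in WT and 5 to 12 in matKO. In ExE the 10 WT libraries came under D1042C and the 8 matKO libraries under D707T, so that genotype and prefix cannot be told apart.

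Sfmbt2 was almost absent from oocytes and higher at each later stage, whereas Sfmbt1 was abundant in oocytes and 2-cell embryos and low from the blastocyst on. Per kilobase of merged exon, which allows levels of the genes to be compared, Sfmbt2 stood at 0.0279 CPM per kb at the oocyte, 0.212 at the 2-cell, 3.41 at the blastocyst stage and 14.2 in ExE, over both genotypes. Sfmbt1 stood at 29.9, 25.4, 0.763 and 2.64 CPM per kb in the same order. No oocyte or 2-cell embryo of either genotype held more Sfmbt2 than Sfmbt1 counts. Sfmbt2 counts exceeded Sfmbt1 counts in 13 of 14 WT blastocysts, 12 of 14 matKO blastocysts and 18 of 18 ExE pieces. The pair of genes thus exchanged places between the 2-cell embryo and the blastocyst in both genotypes.

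**Figure D1:**
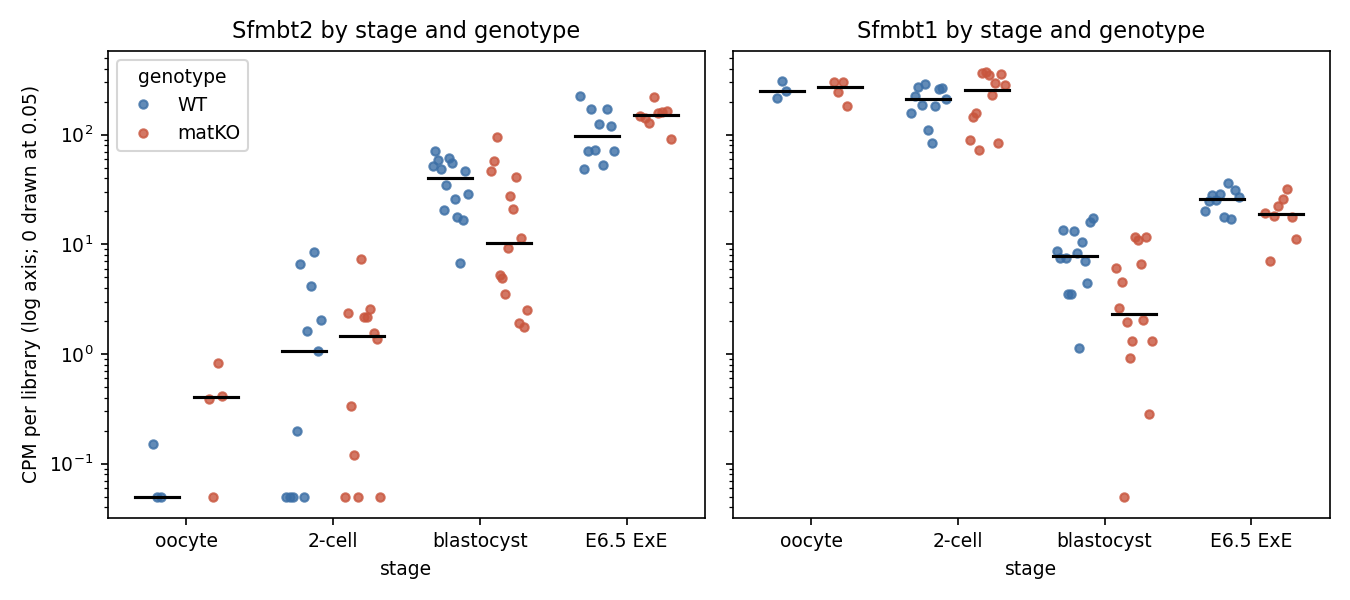
Sfmbt2 (left) and Sfmbt1 (right) in CPM on a log axis at the 4 stages, 1 point per library, with WT in blue, matKO in red and black bars at the medians; libraries at 0 are drawn at 0.05. Sfmbt2 rises from medians of 0 and 0.401 CPM in WT and matKO oocytes to 96.5 and 152 CPM in ExE, while all 28 blastocysts lie below every 2-cell embryo for Sfmbt1.

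In WT oocytes Sfmbt2 had 2 counts in all, with 0.152, 0 and 0 CPM in the 3 libraries. The matKO oocytes had 24 counts, with 0.387, 0, 0.826 and 0.415 CPM. The groups overlapped at 0, and 3 of 4 matKO oocytes lay above every WT oocyte at levels that rest on 6, 7 and 11 counts. The limit that a count of 0 allows (3 counts) was 0.261 and 0.243 CPM in the WT libraries at 0 and 0.569 CPM in the matKO library at 0; like the intervals below it covers counting error only. Sfmbt2 was under the count filter of the oocyte test, and without that filter its matKO over WT log2 difference was 2.77 ± 2.04 (SE; edgeR quasi-likelihood test, adjusted p 0.722). A difference was not detected. The log2 ratio of Sfmbt2 to Sfmbt1 counts, with 0.5 added to each count, was 2.36 higher in matKO oocytes (exact permutation test, p 0.114). With 2 added to each count it was 1.48 higher (exact permutation test, two-sided, p 0.0286, the smallest this design can give). Sfmbt1 stood at 216, 310 and 249 CPM in WT and at 299, 246, 304 and 181 CPM in matKO oocytes, with overlapping groups. Its log2 difference was -0.03 ± 0.22 (SE; edgeR, adjusted p 0.988).

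In 2-cell embryos Sfmbt2 was detected in most embryos at a low level. WT embryos ranged from 0 to 8.59 CPM with a median of 1.06, and 4 of 11 were at 0. The matKO embryos ranged from 0 to 7.39 CPM with a median of 1.45, and 3 of 12 were at 0. The groups covered nearly the same range, and no matKO embryo exceeded the highest WT value. The edgeR test gave a log2 difference of -0.10 ± 1.12 (SE; adjusted p 0.981), and its sign changed with the tool. Sfmbt1 ranged from 83.5 to 289 CPM (median 213) in WT and from 72.1 to 372 CPM (median 257) in matKO embryos. Its log2 difference was 0.25 ± 0.26 (SE; edgeR, adjusted p 0.704), although 5 of 12 matKO embryos exceeded the highest WT value.

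The steps between stages were tested in 1 edgeR model over all 76 libraries and 20943 genes, in which a gene was called at an adjusted p under 0.05. All oocytes and 2-cell embryos carry the prefix D707T, and no WT ExE piece does, so that stage and prefix are partly confounded. In the WT step from the blastocyst to ExE they cannot be told apart. WT blastocysts carry D405T or D707T there, and all WT ExE pieces carry D1042C. From the oocyte to the 2-cell embryo Sfmbt2 rose in WT by a log2 value of 4.52 ± 1.51 (SE; adjusted p 0.0119), a step for which 22.1% of all genes were called higher. With edgeR's newer quasi-likelihood fit (legacy=FALSE) the step was 4.26 and the call was lost (adjusted p 0.0778). The WT oocyte level rests on 2 counts, and from pooled counts the ratio was 24.9 with an exact 95% interval of 6.72 to 208.5 for counting error only. In matKO the step was 1.64 ± 1.00 (adjusted p 0.169), with a pooled ratio of 3.16 and an interval of 1.97 to 5.24. The difference between the genotypes in this step was -2.88 ± 1.80 (SE; edgeR, adjusted p 0.799), and was not called.

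From the 2-cell embryo to the blastocyst Sfmbt2 rose by 5.01 ± 0.68 (SE; edgeR, adjusted p 1.65e-09) in WT and by 4.56 ± 0.66 (adjusted p 5.84e-09) in matKO, where 28.2% and 29% of all genes were called higher. In WT 13 of 14 blastocysts lay above every 2-cell embryo, and in matKO 8 of 14 did. These sizes depended on prefix, since blastocysts of D707T held less Sfmbt2 than those of D405T. A fit to the 50 libraries of D707T alone, added after the data were seen, gave smaller steps of 3.74 ± 0.74 in WT and 2.36 ± 0.66 in matKO (SE; edgeR, adjusted p 4.51e-05 and 0.00176), with 18.4% and 23% of genes called higher. From the blastocyst to ExE it rose by 1.56 ± 0.54 (edgeR, adjusted p 0.0108) in WT and by 2.86 ± 0.57 (adjusted p 2.08e-05) in matKO, beside 31.8% and 30.3% of genes called higher. Within D707T the matKO step into ExE was larger, at 5.05 ± 0.77 (SE; edgeR, adjusted p 4.58e-07), beside 28.1% of genes called higher. The genotypes differed by -0.45 ± 0.86 and 1.31 ± 0.79 in these steps (SE; edgeR, adjusted p 0.885 and 0.344). Blastocysts and ExE pieces hold several cell types, and in such bulk samples fewer cells of a type and less RNA per cell cannot be told apart.

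Sfmbt1 fell at the step into the blastocyst, where Sfmbt2 rose, and both genes rose into ExE. From the 2-cell embryo to the blastocyst it fell by 3.96 ± 0.38 on the log2 scale in WT (SE; edgeR, adjusted p 2.16e-15) and by 5.05 ± 0.39 in matKO (adjusted p 1.74e-19), where 41.8% and 43.6% of all genes were called lower. Within D707T it fell by 4.38 ± 0.64 and by 5.93 ± 0.51 (SE; edgeR, adjusted p 1.2e-07 and 8.06e-15), where 29.8% and 42.6% of genes were called lower. It then rose into ExE by 1.52 ± 0.36 in WT (edgeR, adjusted p 0.000201) and by 2.26 ± 0.38 in matKO (adjusted p 6.25e-07), or 3.15 ± 0.46 in matKO within D707T (adjusted p 1.93e-07). Its first step was not called, at -0.57 ± 0.54 in WT and -0.32 ± 0.49 in matKO (SE; edgeR, adjusted p 0.398 and 0.62).

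In blastocysts the level of Sfmbt2 followed the library prefix. WT blastocysts of prefix D405T ranged from 25.6 to 71 CPM (median 50.3, n = 10), and the 4 WT blastocysts of D707T had 6.78, 16.7, 17.6 and 20.5 CPM. The matKO blastocysts of D405T ranged from 21 to 94.2 CPM (median 44, n = 6), and those of D707T ranged from 1.76 to 11.4 CPM (median 4.23, n = 8). In both genotypes every D707T blastocyst lay below every D405T blastocyst. The log2 difference, D707T over D405T, was -1.30 ± 0.40 in WT (SE; edgeR, adjusted p 0.0216) and -2.94 ± 0.35 in matKO (adjusted p 2.47e-07). Of all genes, 8.6% in WT and 19.4% in matKO were called lower in D707T. The D707T values rest on 44 to 298 counts in WT and 13 to 93 in matKO, against 485 counts or more in D405T.

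Markers of the trophectoderm, the outer trophoblast layer of the blastocyst, moved with the prefix as well. The summed level of 15 trophectoderm markers ran from 6819 to 11350 CPM in WT D405T, from 3590 to 6176 in WT D707T, from 5620 to 8033 in matKO D405T and from 2621 to 3924 in matKO D707T. Summed markers of the inner cell mass and epiblast, 11 genes, ran from 369.8 to 945.6, from 666.0 to 843.3, from 442.9 to 672.8 and from 619.9 to 999.7 CPM in the same order. All 15 and all 11 genes had counts in the tables, and the part of these markers in the prefix difference was not tested. Relative to the mean log2 level of the trophectoderm list, Sfmbt2 stood at -2.41 ± 0.51 (SD) in WT D405T, -3.00 ± 0.93 in WT D707T, -2.01 ± 1.04 in matKO D405T and -3.61 ± 1.06 in matKO D707T.

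**Figure D2:**
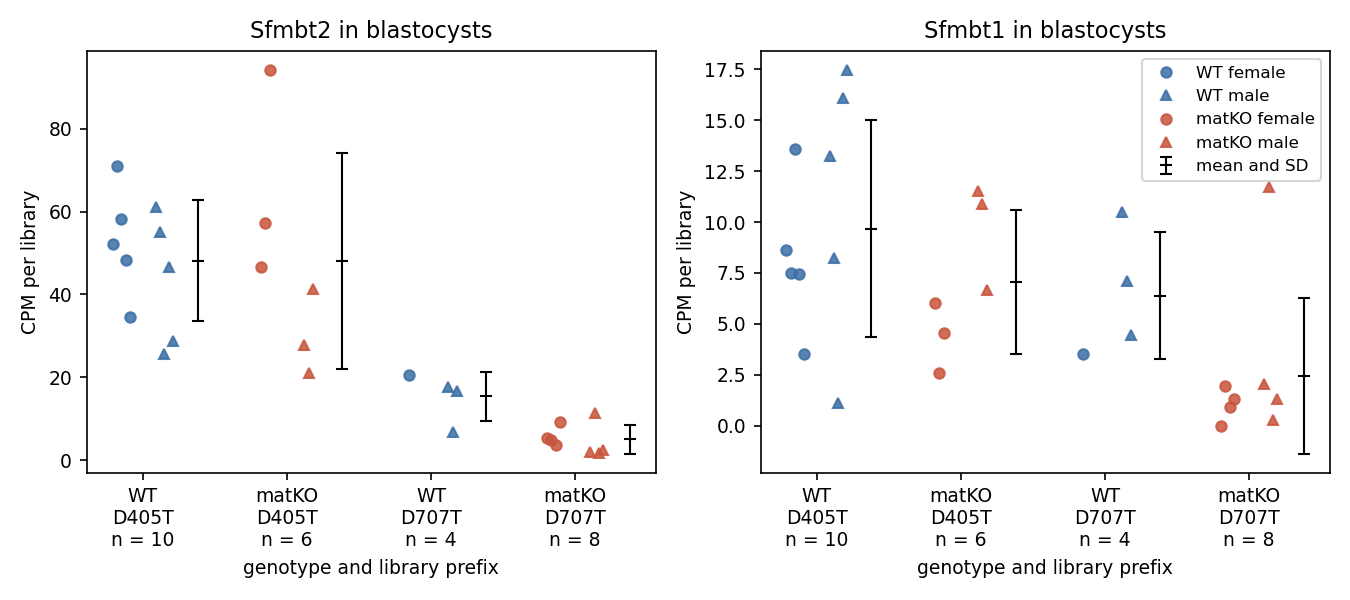
Sfmbt2 (left) and Sfmbt1 (right) in blastocysts, in CPM on a linear axis, by genotype and library prefix; circles are female and triangles male embryos, and the bars give mean and SD. For Sfmbt2 the D707T means of 15.4 (WT) and 5.05 CPM (matKO) lie far under the D405T means, both near 48 CPM, where the genotypes do not separate.

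The genotypes were therefore compared over both prefixes and within each. Pooled over prefixes, WT blastocysts held 38.8 ± 19.8 CPM (SD, n = 14) of Sfmbt2 and matKO blastocysts 23.5 ± 27.5 (n = 14). With sex and prefix as terms the log2 difference was -0.65 ± 0.28 (SE; edgeR, p 0.0258, adjusted p 0.176), and Sfmbt2 was not called, beside 3.55% of genes called lower. The value was smaller with the newer edgeR fit, at -0.35 (adjusted p 0.358), and with limma voom, at -0.20 (adjusted p 0.642). Within D405T, where 5.18% of genes were called in either direction, the difference was 0.01 ± 0.24 (edgeR, adjusted p 0.994), with 2 of 6 matKO blastocysts above the WT mean. Within D707T, where 0.983% of genes were called, it was -1.63 ± 0.56 (edgeR, p 0.00983, adjusted p 0.183), with 8 of 8 matKO blastocysts below the WT mean and 6 of 8 below every WT blastocyst. The difference between these differences was -1.63 ± 0.49 (SE; edgeR, p 0.00236, adjusted p 0.0877), where 0.692% of all genes were called lower, and DESeq2 put it past the threshold at -1.59 (adjusted p 0.0416 by DESeq2). Genotype and identifier number cannot be told apart within D707T.

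By sex the matKO over WT log2 difference was -0.30 ± 0.40 in female and -0.96 ± 0.38 in male blastocysts (SE; edgeR, adjusted p 0.923 and 0.211). Female WT blastocysts stood at 47.5 ± 17.8 CPM (SD, n = 6) and female matKO blastocysts at 31.6 ± 35.4 (n = 7). Male blastocysts stood at 32.3 ± 19.7 (n = 8) in WT and 15.4 ± 15.3 (n = 7) in matKO. A difference of this effect between the sexes was not called (0.67 in log2 units; edgeR, adjusted p 1). In 2-cell embryos the effect was 0.66 in females and -0.68 in males, with a difference of 1.34 between the sexes (edgeR, adjusted p 0.922).

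For Sfmbt1, WT blastocysts held 8.74 ± 4.91 CPM (SD, n = 14), from 1.13 to 17.5, and matKO blastocysts 4.42 ± 4.27 (n = 14), from 0 to 11.7. The groups overlapped, with 11 of 14 matKO blastocysts below the WT mean and 3 below every WT blastocyst. Its log2 difference was -0.78 ± 0.44 (SE; edgeR, adjusted p 0.347). Within D707T 7 of 8 matKO blastocysts lay below every WT blastocyst and 1 lay above all of them. The difference was -1.15 there and -0.44 within D405T (edgeR, adjusted p 0.627 and 0.634). The log2 ratio of Sfmbt2 to Sfmbt1 counts was 2.19 ± 1.19 (SD) in WT and 2.31 ± 1.86 in matKO blastocysts, a difference of 0.12 (permutation test, two-sided, p 0.845).

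In ExE, where genotype and prefix cannot be told apart, Sfmbt2 was higher in the matKO libraries. WT pieces ranged from 48.6 to 225 CPM (median 96.5, n = 10) and matKO pieces from 90.5 to 220 CPM (median 152, n = 8). The groups overlapped at the top: 7 of 8 matKO pieces lay above the WT mean, none lay above every WT piece, and 5 WT pieces lay below every matKO piece. With sex as a term the log2 difference was 0.76 ± 0.28 (SE; edgeR, p 0.0121, adjusted p 0.049), and Sfmbt2 was called, beside 24.9% of genes called in either direction and 14.1% called higher. The call sat at the threshold. It was lost when library totals replaced the TMM scaling (0.41, adjusted p 0.255), without the count filter (0.73, adjusted p 0.0637) and in 12 of the 18 fits that left out 1 library, whose values ran from 0.63 to 0.91 (adjusted p 0.021 to 0.134). The fits that kept it left out WT female 1, 4 or 6, WT male 2, matKO female 1 or matKO male 3. Library totals moved the median of all genes from -0.07 to -0.40 and the share of calls that were higher from 56.8% to 26%. Relative to that median Sfmbt2 stood at 0.83 with TMM and 0.81 with totals, and Sfmbt1 at -0.017 and -0.014. A change of scaling moves all genes of a library together, so values relative to the median are close by construction.

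Sfmbt1 was not called in ExE. WT pieces held 25.7 ± 6.09 CPM (SD, n = 10) and matKO pieces 19.2 ± 7.86 (n = 8), from 17.1 to 36.5 and from 6.97 to 31.8, with a log2 difference of -0.08 ± 0.24 (SE; edgeR, adjusted p 0.825). The log2 ratio of Sfmbt2 to Sfmbt1 counts, which needs no library scaling, was 1.98 ± 1.03 (SD, n = 10) in WT and 3.06 ± 0.61 (n = 8) in matKO, which is 1.08 higher (exact permutation test, two-sided, p 0.0206). By sex the Sfmbt2 difference was 0.68 ± 0.36 in female and 0.88 ± 0.46 in male pieces (SE; edgeR, adjusted p 0.231 and 0.259), and -0.19 between them (adjusted p 0.999).

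**Figure D3:**
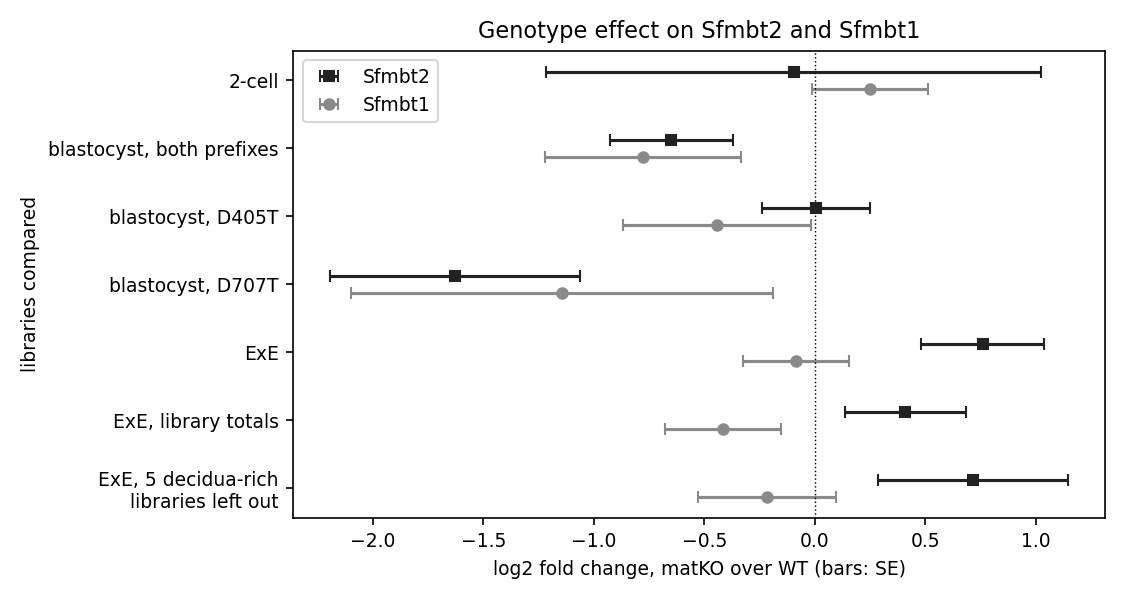
Log2 fold change, matKO over WT, of Sfmbt2 (black squares) and Sfmbt1 (grey circles), with bars of 1 SE, for each set of libraries compared with edgeR. Sfmbt2 sits at 0.01 in D405T and -1.63 in D707T blastocysts and at 0.76 in ExE, or 0.41 in ExE scaled by library totals and 0.72 without the 5 matKO libraries richest in decidua markers.

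The ExE pieces differed in the levels of markers of other tissues, while tissue content itself was not measured. Decidua is the uterine tissue around the conceptus, and 6 of its 12 tested markers were called higher in matKO and 0 lower, beside 14.1% of all genes called higher. Among them were Col1a1, a stromal collagen gene (2.89 ± 0.67 SE; edgeR, adjusted p 0.00435), Des, the muscle-type filament desmin (4.12 ± 0.95, adjusted p 0.00547), and Wnt4 (3.00 ± 0.74, adjusted p 0.00565). The median over these 12 was 2.79, against -0.07 over all genes. The summed level of all 15 decidua genes ran from 13.2 to 162.5 CPM in WT and from 42.9 to 756 CPM in matKO, none of them at 0 throughout, and 5 of 8 matKO pieces exceeded the highest WT piece. Without those 5, which leaves 3 matKO pieces, the Sfmbt2 difference was 0.72 ± 0.43 (SE, edgeR, adjusted p 0.297) and was not called. This comparison does not separate the level of decidua markers from the smaller number of pieces. Among tested markers of blood 3 of 4, and of the ectoplacental cone and giant cells 3 of 6, were also called higher. Summed markers of endoderm, 13 genes, ran from 1618 to 7238 CPM in WT and from 1234 to 12530 CPM in matKO pieces.

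Most markers of ExE itself were not called, which was also so of genes in general. Of all genes in ExE, 24.9% were called in either direction and 14.1% were called higher. The summed level of 12 markers of ExE and trophoblast stem cells ran from 528 to 1411 CPM in WT and from 222 to 957 CPM in matKO, and the median of their log2 differences was -0.38. Of the 12, Ets2, a transcription factor of the trophoblast, was called higher (0.83 ± 0.26 SE; edgeR, adjusted p 0.0213) and Fgfr2, the receptor through which FGF keeps trophoblast stem cells, was called lower (-0.96 ± 0.33, adjusted p 0.0354). Relative to the mean log2 level of this list Sfmbt2 stood at 1.08 ± 0.38 (SD, n = 10) in WT and 2.52 ± 0.91 (n = 8) in matKO, which is 1.43 higher (exact permutation test, two-sided, p 0.000183). The value depended on the list: against the trophectoderm list, of which 4 genes were called higher and 1 lower in matKO ExE, the difference was 0.22 (exact permutation p 0.455). The part of the tissue make-up in the Sfmbt2 difference was not tested further.

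**Figure D4:**
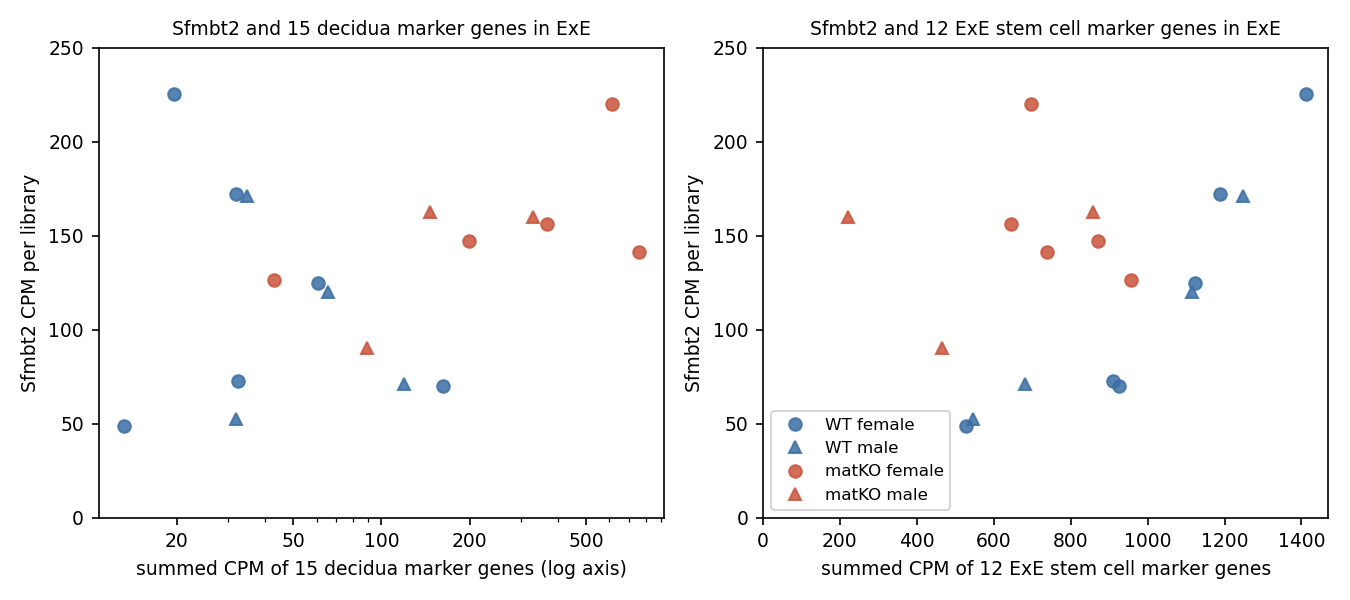
Sfmbt2 in CPM in each ExE piece against the summed CPM of 15 decidua markers (left, log axis) and of 12 ExE stem cell markers (right), with WT in blue, matKO in red, circles female and triangles male. The matKO pieces reach 756 CPM in decidua markers, and the 5 above 162.5 hold 141 to 220 CPM of Sfmbt2.

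The MBT family gives the setting of the pair. Of its 10 members, 8 were tested at the oocyte and 2-cell stages, 6 in blastocysts and 8 in ExE, and between genotypes 0, 0, 1 and 1 were called. The medians of their log2 differences were -0.10, 0.18, -0.42 and -0.06, beside 0.02, 0.02, -0.03 and -0.07 over all genes; in oocytes 0.0202% and in 2-cell embryos 0.731% of genes were called in either direction. The 1 call in ExE was Sfmbt2, beside 24.9% of all genes called in either direction. The 1 call in blastocysts was L3mbtl3, a reader of methylated lysines with MBT domains, with means of 15.3 ± 6.03 CPM (SD, n = 14) for WT and 5.53 ± 3.69 (n = 14) for matKO. L3mbtl3 fell by 1.27 ± 0.34 in log2 units (SE; edgeR, adjusted p 0.0179), beside 6.3% of genes called, and 12 of 14 matKO blastocysts lay below every WT blastocyst. Within the prefixes it fell short of the threshold, with -0.81 ± 0.26 in D405T and -2.0 ± 0.73 in D707T (SE; edgeR, adjusted p 0.0751 and 0.206). Its differences of -0.69 in oocytes, -1.50 in 2-cell embryos and -0.04 in ExE were not called (edgeR, adjusted p 0.871, 0.16 and 0.945).

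Over development Sfmbt2 was the family member that rose from near 0 to the top. In ExE it had the highest level per kb of the family in both genotypes, 12.4 ± 6.60 CPM per kb (SD, n = 10) in WT and 16.5 ± 4.0 (n = 8) in matKO, ahead of L3mbtl2, a subunit of the Polycomb complex PRC1.6, at 9.53 ± 3.10 and 8.32 ± 2.11. In WT the SDs of these neighbours overlap. Scml2, a Polycomb protein of the germ line, fell from 120 CPM in WT 2-cell embryos to a median of 0 in WT blastocysts, and from 202 CPM to a median of 0 in matKO. Mbtd1, a subunit of an acetyltransferase complex, fell by 3.43 ± 0.24 in WT and by 3.48 ± 0.24 in matKO over the same step (SE; edgeR, adjusted p 2.1e-21 and 4.38e-22). L3mbtl2 fell by 0.99 ± 0.21 and by 0.79 ± 0.20 (adjusted p 2.48e-05 and 0.000405). Scmh1, a PRC1 partner, had already fallen from the oocyte to the 2-cell embryo, by 1.97 ± 0.53 and by 1.69 ± 0.48 (SE; edgeR, adjusted p 0.00181 and 0.00283), beside 21.7% and 24.4% of genes called lower. L3mbtl1, L3mbtl4 and Scml4 were at or under 1.64 CPM on average at every stage.

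**Figure D5:**
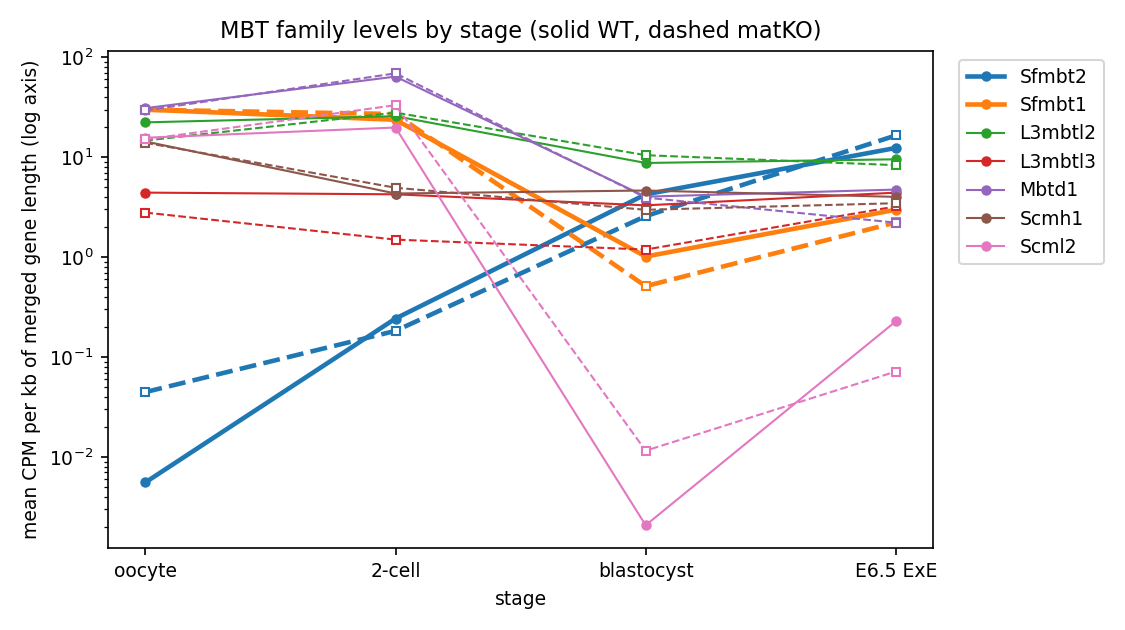
Mean CPM per kb of merged exon on a log axis at the 4 stages for Sfmbt2, Sfmbt1 and the 5 other MBT family members with a mean above 2 CPM at some stage, with filled points and solid lines for WT, open points and dashed lines for matKO. Sfmbt2 crosses Sfmbt1 between the 2-cell embryo and the blastocyst and ends at 12.4 and 16.5 CPM per kb in ExE.

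The DNA-binding partners of the PhoRC-type complexes, to which Sfmbt2 belongs, are YY1-type zinc finger proteins. Yy1 rose from the oocyte to the 2-cell embryo by 4.30 ± 0.47 in WT and 4.40 ± 0.41 in matKO (SE; edgeR, adjusted p 5.08e-12 and 6.68e-15), and Zfp42, the Yy1-related Rex1 of pluripotent cells, rose by 5.37 ± 0.68 and 5.72 ± 0.61 (adjusted p 5.79e-10 and 1.05e-12), beside 22.1% and 23.9% of genes called higher. Zfp42 rose further into the blastocyst, by 2.12 and 2.58, and fell by 2.43 and by 2.40 into ExE (edgeR, adjusted p 7.46e-10 and 1.78e-08), where 23.1% and 18.7% of genes were called lower and Sfmbt2 rose. Between genotypes 0 of the tested genes of this list were called at any stage: in blastocysts Yy1 stood at 0.34 ± 0.16 and Zfp42 at 0.37 ± 0.12 (SE; edgeR, adjusted p 0.227 and 0.0741). Within D405T blastocysts Yy1 was called higher at 0.58 ± 0.14 (edgeR, adjusted p 0.0213), beside 2.51% of genes, and within D707T it stood at 0.02 (adjusted p 0.981).

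The partners of Sfmbt1 in LSD1-CoREST, 12 genes that were all tested at each stage, had 0 called in oocytes, 2-cell embryos and blastocysts. Of all genes 0.0202%, 0.731% and 6.3% were called at these stages. Within D405T blastocysts, where 5.18% of genes were called, 1 of the 12 was called lower, the scaffold Rcor1 at -0.51 ± 0.14 (SE, edgeR, adjusted p 0.0431). Within D707T, where 0.983% of genes were called, 0 of the 12 were. In ExE 2 were called higher and 1 lower, close to the 24.9% of all genes called in either direction, and the list median was 0.23 against -0.07 over all genes. Hmg20b, a DNA-bending subunit, rose from 8.38 ± 3.70 CPM (SD, n = 10) in WT to 36.9 ± 12.1 (n = 8) in matKO, by 2.49 ± 0.26 (SE; edgeR, adjusted p 1.16e-06). Kdm1a, the demethylase LSD1 itself, fell from 70.7 ± 27.3 to 30.3 ± 11.4 CPM, by 0.87 ± 0.25 in log2 units (edgeR, adjusted p 0.0151). Gse1 was called higher (3.24 ± 0.97, adjusted p 0.0173) at means of 0.120 and 0.980 CPM, near the limit of detection. Of 12 genes of PRC1.6, which shares L3mbtl2 with the MBT family, 0 were called in oocytes, 2-cell embryos and blastocysts; in ExE 0 were higher and 2 lower, beside 24.9% of all genes called: E2f6, its E2F-type DNA-binding factor, at -0.83 ± 0.24 and Yaf2, a RING1 partner, at -0.78 ± 0.28 (SE; edgeR, adjusted p 0.0133 and 0.0463). Within D405T blastocysts Yaf2 was also called lower, at -1.28 ± 0.32 (SE; edgeR, adjusted p 0.0239), and within D707T it stood at -0.97 (adjusted p 0.616).

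Sfmbt2 is 1 of 7 noncanonical imprinted genes listed here, and called members of this list went in both directions. In blastocysts 2 were called higher and 1 lower, beside 6.3% of all genes called, with a median of 0.52 against -0.03 over all genes. Gab1, an adaptor of growth factor receptors, rose by 0.75 ± 0.16 (SE; edgeR, adjusted p 0.00466) and Platr4, a noncoding RNA, by 1.05 ± 0.28 (adjusted p 0.0188), and Slc38a4, an amino acid transporter of the placenta, fell by 0.70 ± 0.18 in log2 units (adjusted p 0.0139). These 3 were also called within D405T, where 5.18% of all genes were called, at 1.0, 1.24 and -0.81 (edgeR, adjusted p 0.000444, 0.0354 and 0.0412). Sfmbt2 stood at 0.01 there, and Jade1 was called too, at 0.57 (edgeR, adjusted p 0.0448). Within D707T, where only 0.983% of all genes were called, none of these 4 was called. Gab1 stood at 0.29, Platr4 at 0.91, Slc38a4 at -0.66 and Jade1 at -0.04 (edgeR, adjusted p 0.725, 0.411, 0.321 and 0.971). In ExE Gab1 rose by 1.11 ± 0.20 and Smoc1, a secreted matrix protein, by 0.86 ± 0.25 (SE; edgeR, adjusted p 0.000468 and 0.0155), beside Sfmbt2 at 0.76 and 24.9% of all genes called. Slc38a4 stood at -0.11 ± 0.28 there (edgeR, adjusted p 0.812). In oocytes 0 of 4 and in 2-cell embryos 0 of 6 tested genes were called, beside 0.0202% and 0.731% of all genes.

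Around Sfmbt2 the tables list 131 genes that overlap it or start within 500 kb of it, and 119 lie inside it. Of these 71 are microRNA genes, between 10466663 and 10518279 on chromosome 2, and they held 6 counts in all 76 libraries together; libraries of polyadenylated RNA do not measure mature microRNAs. The neighbours with a mean of at least 1 CPM at some stage were Taf3, C630004M23Rik, Atp5c1, Kin, Itih2, Itih5 and the antisense gene Gm13261. None of them was called between genotypes at any stage where it was tested with edgeR. The share of all genes called in either direction was 24.9% for ExE, 6.3% for blastocysts, 0.731% for 2-cell embryos and 0.0202% for oocytes. Gm13261 runs from 10339283 to 10374041 on the minus strand and overlaps the start of Sfmbt2 by 3532 bases, with 0 exon bases in common. It had 0 counts in all 7 oocytes, and means of 4.59 (WT) and 2.26 CPM (matKO) in 2-cell embryos, 3.01 and 4.11 in blastocysts and 4.65 and 5.39 in ExE. Its log2 difference was 0.73 ± 0.43 in blastocysts and 0.54 ± 0.38 in ExE (SE; edgeR, adjusted p 0.379 and 0.312). Whether reads were counted by strand was not given in the sources used here, so a read from an intron of one gene that falls on an exon of the other may be assigned to the other.

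By Pearson correlation of log2 CPM over the 76 libraries, the gene most like Sfmbt2 among 10205 with a mean of at least 5 CPM was Mir703 (r = 0.911). Genes with placeholder names, such as those with Rik or Gm, were left out here and in the blastocyst ranking below. Mir703 is a microRNA gene, whose mature form these libraries do not measure. Next came Tmprss2, a membrane serine protease (0.901), Hspd1, a mitochondrial chaperone (0.896), Sowahb (0.89) and Nxf7 (0.876). The libraries share stages and prefixes in these correlations. The trophoblast regulators Gata3, Gata2, Eomes, Cdx2 and Elf5 had r of 0.475, 0.582, 0.822, 0.647 and 0.803, and Sfmbt1 had -0.518. In the 28 blastocysts, after subtraction of the mean of each genotype, sex and prefix, the closest of 8318 genes were Gcc2 (0.826), Mysm1 (0.804), Gclc (0.785), Galnt1 (0.748) and Dmxl1 (0.73). By that measure Gata3, Gata2, Eomes, Cdx2 and Elf5 had r of -0.171, 0.034, 0.188, -0.61 and -0.076, and Sfmbt1 had 0.519. Libraries share their depth in these values, and they are given as a description.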

How the data were processed

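Polyadenylated RNA of 76 single-embryo or single-tissue libraries was used. The authors deposited 4 tables, 1 per stage, of whole-number read counts per gene with each gene's coordinates and length, per the file headers. Trim Galore, STAR, SAMtools, featureCounts and build mm10 are named in the submitters' processing notes. Versions, annotation, strand setting and the handling of multi-mapping reads were not given in the sources used here. Mitochondrial counts were 0, and 8 count columns without a sample in the labels were not used.

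From these counts, CPM used library totals over all genes. Tests were edgeR 4.0.16 (estimateDisp, glmQLFit with robust and legacy=TRUE, glmQLFTest; R 4.3.3), with TMM scaling, filterByExpr at a minimum count of 10, and Benjamini-Hochberg adjustment over all genes tested, at a threshold of 0.05. Sex was a term in 2-cell embryos and ExE, and sex and prefix in blastocysts. SEs are those implied by F. Log2 ratios of counts had 0.5 added, log2 CPM a prior count of 2, and permutation tests of 10 or more per group used 100000 resamples. The edgeR fits were run on simulated counts with the same spread for every gene and changes only in well expressed genes. That check does not cover levels as low as those of Sfmbt2 in oocytes and 2-cell embryos.

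Named genes were Sfmbt2 and Sfmbt1, Ezhip, tested MBT family members, up to 3 called genes of lowest p per list and stage, neighbours within 500 kb, and the 5 genes most correlated with Sfmbt2. Others named beside them were chosen after their values were seen: Cdx2, Gata2, Gata3, Eomes and Elf5 in the correlations, and the genes called within prefixes. The members and lists were chosen with earlier results of these data known. Of 183 pairs of libraries within groups, none agreed within sampling noise (lowest chi-square per degree of freedom 10.1). Alternatives were other edgeR fits, DESeq2 1.42.0, limma 3.58.1 voom, other scaling, no filter, other terms, a replicate block, single prefixes and leaving out each library. The genotype-by-prefix difference, the stage steps within D707T and the ExE comparison without pieces rich in decidua markers were added after seeing the data.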

Additional observations from a re-analysis of the deposited data

Results flagged for a closer look

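Of 32 groups of 4 to 10 libraries in which the highest and lowest value of Sfmbt2 or Sfmbt1 were compared with the rest, 3 had a library set apart by more than Dixon's 95% limit, where chance gives about 1 in 20. Sfmbt2 stood at 6.67 CPM in 1 WT female 2-cell embryo, against 0.197 or less in the other 4, on 7 counts. It stood at 7.39 CPM in 1 matKO female 2-cell embryo, against 2.37 or less in the other 5, on 12 counts. Sfmbt1 stood at 11.7 CPM in 1 male matKO blastocyst of prefix D707T, against 2.05 or less in the other 7, and that embryo also had the highest Sfmbt2 of these 8, at 11.4 CPM.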

How the results depend on the processing

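Over 33 results and 121 alternatives that left no library out, 105 kept their direction and their side of the threshold. The Sfmbt2 difference in ExE was not called with library totals (0.41), without the count filter (0.73) or without the 5 matKO pieces rich in decidua markers (0.72), and ran from 0.63 to 0.91 without single libraries. The difference of Sfmbt2 relative to trophoblast markers in ExE was 0.22 with the other marker list and ran from 1.26 to 1.62 without single libraries. The WT step of Sfmbt2 from oocytes to 2-cell embryos was 4.26 with legacy=FALSE (adjusted p 0.0778). The genotype-by-prefix difference was -1.59 with DESeq2, past the threshold. The genotype difference in the oocyte log2 ratio was 2.36 as reported (exact permutation p 0.114). With 2 added to each count it was 1.48 (exact permutation p 0.0286, the smallest this design can give). Directions turned for values that were not called: Sfmbt2 in 2-cell embryos was 0.20 with legacy=FALSE, 0.83 with voom, 0.0493 with the replicate block and -0.69 to 1.06 without single libraries; Sfmbt2 in D405T blastocysts was 0.0051, and in female blastocysts 0.0049 with legacy=FALSE and 0.41 in D405T; Sfmbt2 relative to markers in D405T blastocysts was 0.41; the log2 ratio in blastocysts was -0.072 with 2 added and -0.21 to 0.30 without single libraries; Sfmbt1 in oocytes was 0.105 with the block and -0.16 to 0.13 without single libraries, and in ExE -0.22 to 0.02 (0.016 without 1 of the matKO females). The causes were not tested. Replicate numbers did not pair the libraries: of 34 pairs 9 correlated above 0.1 and 8 best with their own number. With the replicate block Sfmbt2 was -0.76 in blastocysts (adjusted p 0.332) and 0.93 in ExE (adjusted p 0.0327). Counts of called genes ran from 1 to 36 in oocytes (3 as reported), from 14 to 693 in 2-cell embryos (106), from 140 to 1796 in blastocysts (847) and from 1482 to 4645 in ExE (3520). Depth limits Sfmbt2 in oocytes and 2-cell embryos, where all but 1 library held fewer than 20 counts.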
